A study of Mus musculus with 2 samples.

Results

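The 7 MHC class II genes described here are Cd74, H2-Aa, H2-Ab1, H2-Eb1, H2-DMa, H2-DMb1 and Ciita, taken by symbol from 32287 genes and features measured in cells of the mouse leptomeninges. All 7 were found in the gene list. They were chosen by their measured levels, since Cd74 and H2-Ab1 were among the leading genes of a fibroblast cluster in earlier results of the same data, so the members' levels are given as descriptions without tests. The data were 2 droplet single-cell RNA libraries, R1 and R2, that form 1 group (n = 2), so every comparison is between cell classes within the libraries. The leptomeninges, the soft membranes on the brain, had been peeled by hand from the cerebral hemispheres of male and female mice aged 3 months. The strain in both libraries was Pdgfra-H2BGFP, in which cells that use the Pdgfra gene have green nuclei. The labels do not say whether R1 and R2 came from separate animals, so differences between them may be technical.

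MHC class II molecules are pairs of an alpha and a beta chain that carry peptides from taken-up proteins to the cell surface, where CD4+ T cells read them. Dendritic cells, B cells and activated macrophages are the usual carriers, and interferon gamma can induce the genes in other cells. Ciita is the co-activator that switches the family on, Cd74 encodes the invariant chain that escorts new molecules and fills their groove, H2-Aa, H2-Ab1 and H2-Eb1 encode the chains themselves, and H2-DMa and H2-DMb1 encode the 2 chains of the DM molecule that exchanges the invariant chain fragment for peptide.

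Transcripts were counted as UMIs, or unique molecular identifiers. There were 14586462 UMIs over 7276 barcodes in R1 and 12359040 over 6743 in R2. Filters on genes and mitochondrial UMIs kept 2988 barcodes of R1 and 3038 of R2, with medians of 1643.5 and 1249 UMIs. The kept barcodes held 20570 UMIs of the 7 genes in R1 and 23247 in R2. R1 and R2 shared 93 barcode sequences, 74 of them among kept barcodes, and 73 of these 74 had the same class in both libraries. Classes are clusters named from marker genes and carry the ending "-like", and clusters without a clear name keep a number. The dural border-like barcodes (582 in R1 and 323 in R2) held 10999 and 12823 CPM (UMIs of the gene scaled to a common total of UMIs) of 7 dural border markers, against 1020 and 1800 CPM in the other 3 fibroblast-like layers combined. The class II genes and the pathway genes below were left out of the genes used for clustering.

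The 5 H2 genes lie within 197 kb of chromosome 17 (GRCm38, GENCODE annotation) and Ciita lies on chromosome 16. H2-DMa spans chr17:34119541-34139101 on the plus strand and overlaps the predicted gene CR974462.3 on the same strand, so its counts are uncertain to that extent. Class II promoters are known for an X box, bound by the RFX complex, followed by a Y box, bound by NF-Y, and Ciita acts through these factors. RefSeq promoter sequences (GRCm38.p6) were at hand for 4 of the 7 genes, and the 250 bases before the start of 3 of them are shown because they hold these letters, with matches in capitals. The promoter of H2-DMb1 (chr17:34152941-34153190, plus strand) contained both boxes, the promoter of H2-Eb1 (chr17:34305617-34305866, plus strand) matched the X box less its first base, and that of H2-Aa (chr17:34287824-34288073, minus strand) matched the Y box core alone.
H2-DMb1: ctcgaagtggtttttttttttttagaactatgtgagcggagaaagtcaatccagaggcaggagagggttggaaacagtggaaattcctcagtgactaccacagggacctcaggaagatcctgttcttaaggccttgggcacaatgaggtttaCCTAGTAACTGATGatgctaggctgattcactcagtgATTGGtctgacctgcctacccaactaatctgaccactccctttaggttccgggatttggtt
H2-Eb1: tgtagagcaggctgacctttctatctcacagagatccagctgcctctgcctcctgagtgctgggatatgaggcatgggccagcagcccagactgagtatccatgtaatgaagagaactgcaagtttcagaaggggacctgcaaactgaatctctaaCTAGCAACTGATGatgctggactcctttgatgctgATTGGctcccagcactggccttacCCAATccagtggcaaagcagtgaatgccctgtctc
H2-Aa: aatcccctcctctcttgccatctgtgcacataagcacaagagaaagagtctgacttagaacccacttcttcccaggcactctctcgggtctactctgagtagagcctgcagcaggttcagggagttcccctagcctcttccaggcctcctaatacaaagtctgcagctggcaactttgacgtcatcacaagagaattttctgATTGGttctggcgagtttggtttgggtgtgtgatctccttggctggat

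Both strands were searched for the X box, whose matched letters are the long runs of capitals, and for ATTGG as the Y box core, and a match is a description of letters, not of a bound site. The full X box stood in 16 of 32851 promoters (0.0487%) and the form without its first base, chosen after the sequences had been seen, in 75 (0.228%). ATTGG is common, with a match in 33.8% of promoters. Between the end of the X box letters and the start of ATTGG lay 23 bases in H2-DMb1 and 22 bases in H2-Eb1. In H2-Eb1 a second Y box match on the minus strand reads CCAAT. H2-DMa had 2 RefSeq promoters, of which one held ATTGG farther upstream, from 198 to 194 bases before the start.

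The class II genes were highest in 3 small unnamed leukocyte clusters and in B-like barcodes, and among the fibroblast-like layers they were highest in dural border-like barcodes. Summed over the 7 genes, cluster M04 averaged 83478 ± 3841 CPM (SD, n = 2 libraries, as for all means that follow). Cluster M01 averaged 61124 ± 21127 CPM, cluster M02 36007 ± 9515 CPM and B-like barcodes 23997 ± 6953 CPM. The 2 library values of each of these 4 did not overlap those of its neighbours. Together M01, M02 and M04 had 54 and 72 barcodes.

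**Figure D1:**
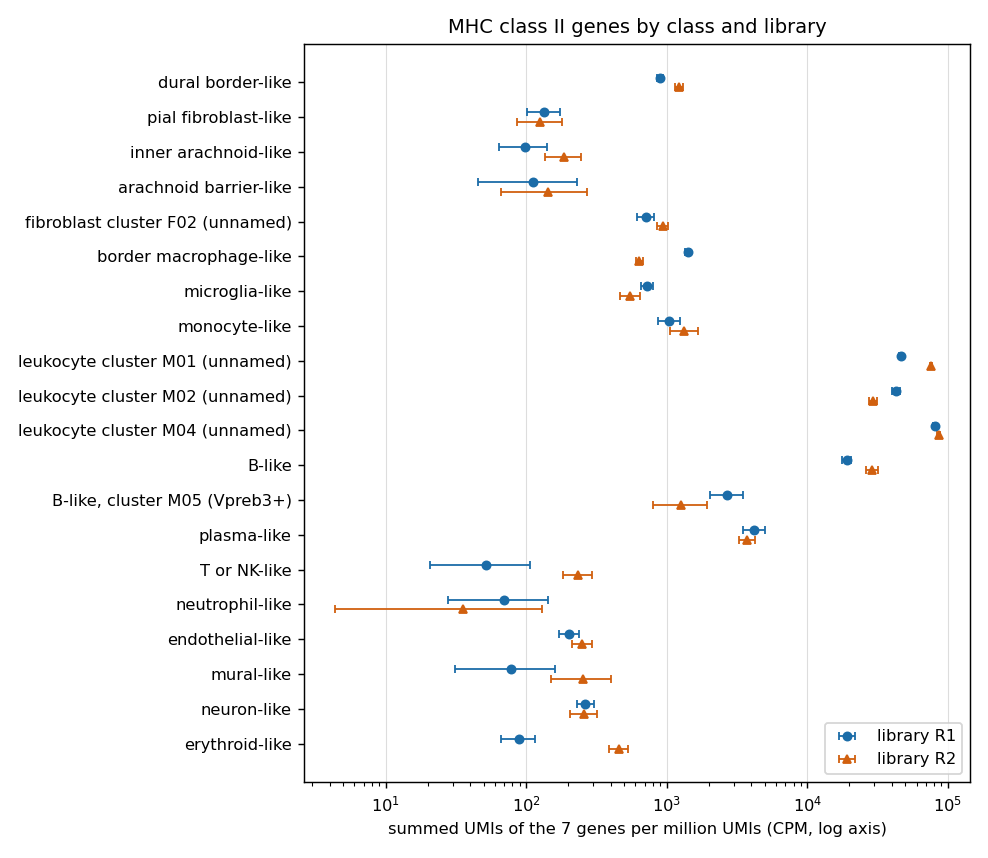
Summed level of the 7 class II genes in CPM (log axis) in each class, for libraries R1 (circles) and R2 (triangles), with exact 95% Poisson intervals for counting error. Clusters M01, M02 and M04 and B-like barcodes lie at 19080 CPM or more, and dural border-like barcodes lie at 896 and 1226 CPM, above the other 3 fibroblast-like layers.

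Cluster M04, with 19 and 23 barcodes, held 80762 CPM of the 7 genes in R1 and 86194 CPM in R2. It also held C1qa, a complement gene of tissue phagocytes, at 3407 and 6214 CPM and Ccr2, a chemokine receptor of cells from the blood, at 1766 and 1540 CPM. Lyve1 and Cd163, markers of resident border macrophages, had 0 UMIs in it, but Ms4a7, another marker of that class, was among its leading genes, with C1qb and C1qc. Its highest score was microglia-like (1.9) while its leading genes pointed to the border macrophage-like class, so it took no name. Cluster M01, with 18 and 23 barcodes, held 46185 and 76063 CPM, with Mgl2 at 1235 and 2268 CPM and Cd209a at 771 and 1237 CPM. Its dendritic and monocyte marker scores lay close together (4.67 and 4.53), so it took no name. Its leading genes also included Mpo, Elane and Ctsg, granule genes of young granulocytes, and at 1000 UMIs per barcode 14 of 17 of its barcodes in R1 and 17 of 19 in R2 had a class II UMI. Cluster M02, with 17 and 26 barcodes, held 42735 and 29279 CPM, and none of its barcodes had 1% or more Malat1 UMIs, Malat1 being a nuclear RNA that marks intact nuclei. M01 alone carried 36.7% of all kept class II UMIs of R1 and 51.1% of those of R2, and M04 carried 31.3% and 27.0%.

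Most Ciita UMIs lay in M01 and M04. Ciita had 30 UMIs in M01 of R1 and 36 in M01 of R2, and 19 and 14 UMIs in M04, while M02 had 0 and 1. B-like barcodes had 5 and 3 Ciita UMIs. Of all kept barcodes, R1 held 78 and R2 held 61 Ciita UMIs.

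Plasma-like barcodes held Cd74 at a lower CPM than B-like barcodes and few transcripts of the class II chains. Cd74 averaged 3678 ± 442 CPM in plasma-like and 13139 ± 3898 CPM in B-like barcodes (SD, n = 2). Per barcode the order was the reverse, at 99.3 ± 33.5 Cd74 UMIs in plasma-like and 47.9 ± 0.97 in B-like barcodes. The lower CPM is thus a share of a larger total of UMIs. In R1, 1 B-like barcode held 16280 UMIs and the others at most 3935. Erythroid-like markers stood at 305426 CPM in B-like barcodes of R1, against 1701 CPM in R2, so the B-like CPM of R1 are less certain. Each of the 14 B-like barcodes (9 and 5) had Cd74, with 29 to 71 UMIs in R1 and 15 to 78 in R2, and together with it 6 to 86 and 14 to 53 UMIs of H2-Aa, H2-Ab1 and H2-Eb1. The 4 plasma-like barcodes (1 in R1 and 3 in R2), set apart by at least 248 UMIs of Jchain, the antibody joining chain, had 123 Cd74 UMIs in R1 and 49, 70 and 108 in R2. Their H2-Aa, H2-Ab1 and H2-Eb1 UMIs numbered 6 in R1 and 3 to 14 in R2, although these barcodes held 19335 to 30822 UMIs in all. Cd74 was 95.3% (exact 95% binomial interval, 90.2 to 98.3%) and 90.1% (85.7 to 93.5%) of their class II UMIs, and H2-DMa, H2-DMb1 and Ciita had 0. With 1 and 3 barcodes, this is a description of these barcodes only.

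A second B-like cluster, M05, led by the precursor genes Vpreb3 and Rag1, had 7 and 5 barcodes. Cd74 had 0 UMIs in 5 of its 7 barcodes of R1 and in 2 of its 5 barcodes of R2. The others had up to 31 Cd74 UMIs and at most 6 UMIs of the class II chains. Summed, M05 held 2695 CPM of the 7 genes in R1 and 1275 CPM in R2, below the plasma-like 4185 and 3737 CPM in both libraries.

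Below these came monocyte-like (1189 ± 208 CPM), dural border-like (1061 ± 233 CPM) and border macrophage-like barcodes (1026 ± 545 CPM), cluster F02 (824 ± 161 CPM) and microglia-like barcodes (639 ± 127 CPM). Each of these overlapped its neighbour in the order between libraries. Levels in erythroid-like and neuron-like barcodes, cluster F01 and endothelial-like, mural-like, T or NK-like, inner arachnoid fibroblast-like, pial and perivascular fibroblast-like and arachnoid barrier-like barcodes had means of 128 to 273 CPM and each overlapped the next in this order between libraries, while neuron-like values (264 and 258 CPM) lay above the endothelial-like ones (203 and 250 CPM). Single barcodes carried some of these values, with 139 of 158 erythroid-like UMIs and 41 of 68 T or NK-like UMIs in R2 in 1 barcode each. In monocyte-like barcodes 1 barcode held 30.6% of the class II UMIs of R1 and another held 63.6% of those of R2. Neutrophil-like barcodes were lowest, with 69.7 and 35.8 CPM from 7 and 2 UMIs.

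Border macrophage-like barcodes, named after the resident macrophages of the brain's surface, held few class II UMIs apart from a small share of barcodes. Cluster M04, with Ms4a7 among its leading genes, is not part of this class. The class had 552 barcodes in R1 and 691 in R2 and held 1411 CPM in R1 and 640 CPM in R2. Of these barcodes 27.7% and 24.2% reached 1% Malat1 UMIs. Its cluster C03, where 89.9% and 90.6% did, averaged 931 ± 533 CPM, and C08, where 2.8% and 2.5% did, 1169 ± 574 CPM. The median barcode had 0 UMIs of the 7 genes in both libraries. The 5% of barcodes with the most held 74.7% of the class's member UMIs in R1 and 64.8% in R2, and without them the class held 380 and 245 CPM. R1 held a barcode with 146 such UMIs and R2 one with 65.

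The border macrophage-like barcodes with many class II UMIs had a lower level of Pf4, a chemokine gene of border macrophages. At an equal depth of 1000 UMIs per barcode, 5 or more class II UMIs were found in 21 of 390 barcodes in R1 and in 9 of 419 in R2. Pf4 stood at 2286 and 3111 CPM in these, against 4594 and 5000 CPM in barcodes with 0 class II UMIs. Lyve1, a hyaluronan receptor, stood at 95.2 CPM (exact 95% Poisson interval, 11.5 to 344) and 222 CPM (26.9 to 803), against 410 (336 to 494) and 855 CPM (756 to 965). The intervals of Pf4 did not meet in either library, while those of Lyve1, which rest on 2 UMIs in each library's high barcodes, met in both. Cd163 stood at 286 and 333 CPM, against 350 and 514 CPM, with intervals that met, and Ccr2 had 1 and 0 UMIs in the high barcodes. Whether these barcodes hold macrophage and dendritic-type RNA together was not tested.

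Microglia-like barcodes, the brain's own macrophages, formed 2 clusters. In cluster C14, H2-DMa made up 55.0% and 67.7% of the class II UMIs and H2-DMb1 29.1% and 18.5%, while Cd74 made up 10.6% and 6.2%. In R1 that was 104 H2-DMa, 55 H2-DMb1 and 20 Cd74 UMIs, and in R2 it was 44, 12 and 4. Cluster C12 was led by Cd74, with 86 Cd74, 24 H2-DMa and 18 H2-DMb1 UMIs in R1 and 22, 9 and 9 in R2. The C12 values rest on few barcodes, since 6 of its 103 barcodes held 80.3% of its class II UMIs in R1 and 3 of 52 held 71.4% in R2, with a median of 0. In C14 the 5% of barcodes with the most held 22.2% and 27.7%. The 2 clusters also differed in quality. In C12 5.8% and 0% of barcodes reached 1% Malat1 UMIs, at medians of 1094 and 1055 UMIs. In C14 97.5% and 95.2% did, at medians of 5099 and 4916 UMIs.

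Dural border-like barcodes, the outermost fibroblast layer that faces the dura, held the class II genes at several times the level of the other fibroblast-like layers. The 7 genes summed to 896 CPM (exact 95% Poisson interval, 848 to 946) in R1 and 1226 CPM (1149 to 1307) in R2. Pial and perivascular fibroblast-like barcodes (181 and 113) held 134 and 126 CPM, inner arachnoid fibroblast-like barcodes (76 and 82) held 97.5 and 186 CPM, and arachnoid barrier-like barcodes (41 and 36) held 113 and 144 CPM. The dural border-like level was 6.66-fold and 9.72-fold the pial level, 9.19-fold and 6.59-fold the inner arachnoid level and 7.95-fold and 8.52-fold the arachnoid barrier level. Per barcode, dural border-like barcodes held 2.23 and 2.90 class II UMIs, against 0.304 and 0.274 in pial and perivascular fibroblast-like barcodes.

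The order held gene by gene. All 7 genes were higher in dural border-like than in pial and perivascular fibroblast-like barcodes in both libraries, and 7 of 7 than in arachnoid barrier-like and endothelial-like ones. Against the inner arachnoid class it was 6 of 7, the exception being Ciita in R2. These counts include Ciita, which was near its detection limit and had no UMIs in the pial, arachnoid barrier-like and endothelial-like classes. How many of all genes separated in the same way was not counted. The counts therefore only describe members that were chosen by their levels.

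Cd74, the invariant chain, whose gene lies on chromosome 18, had 583 UMIs (403 CPM) in R1 and 419 UMIs (549 CPM) in R2 of dural border-like barcodes, against 45.4 and 48.1 CPM in the other 3 layers together. Among the peptide-binding chains, H2-Aa had 142 and 202 CPM, against 24.1 and 25 CPM. H2-Ab1 had 78.2 and 126 CPM, against 12 and 16.0 CPM. H2-Eb1 had 96.2 and 111 CPM, against 14.7 and 28.5 CPM. For each of these 4 genes both dural border-like values lay above both values of the other layers.

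The DM chains showed the same split. H2-DMa had 58.1 and 58.9 CPM in dural border-like barcodes, against 6.7 and 12.5 CPM in the other 3 layers. H2-DMb1 had 106 and 176 CPM, against 16.0 and 21.4 CPM. Neither gene's libraries overlapped between the 2 sets.

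Ciita, the co-activator, was near its detection limit. It had 18 UMIs (12.5 CPM, exact 95% Poisson interval 7.4 to 19.7) in dural border-like barcodes of R1 and 3 UMIs (3.9 CPM, 0.81 to 11.5) in those of R2. Pial, arachnoid barrier-like and endothelial-like barcodes had 0 in both libraries, and inner arachnoid barcodes had 0 and 2. A count of 0 allows up to 7.3 and 12.2 CPM in the pial class and 4.0 and 5.0 CPM in the endothelial-like class. In the arachnoid barrier-like class it allows up to 48.3 and 48.0 CPM, above both dural border-like values. In R2 a difference in Ciita was therefore not detectable at this depth. Against the arachnoid barrier-like class it was not detectable in R1 either.

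**Figure D2:**
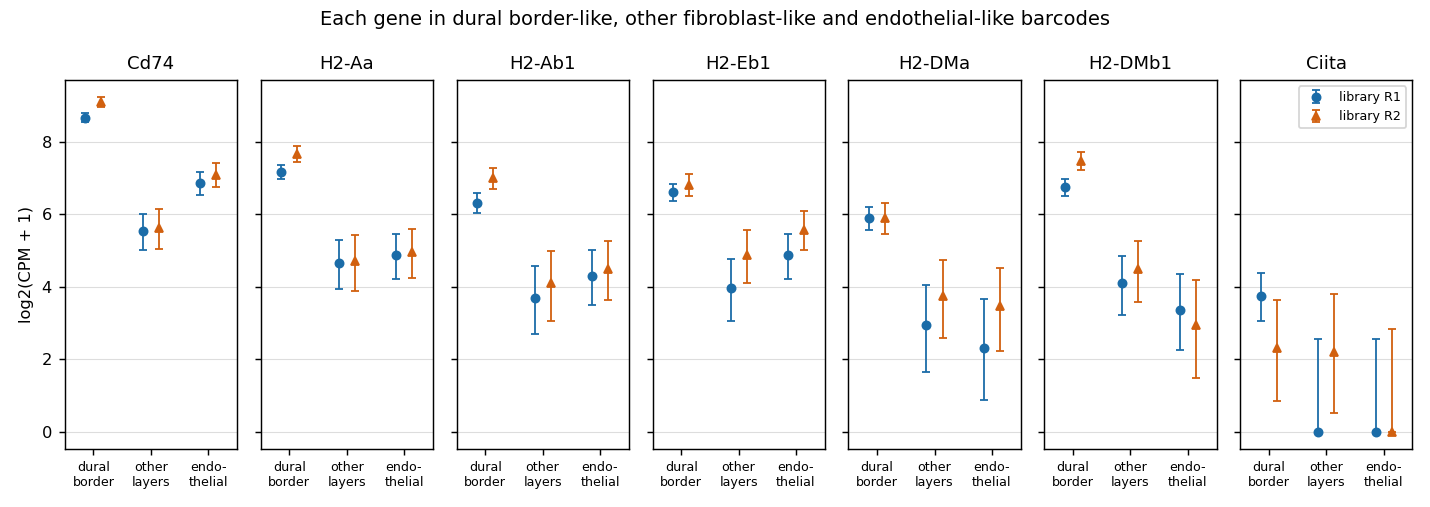
Level of each class II gene as log2(CPM + 1) in dural border-like barcodes, the other 3 fibroblast-like layers together and endothelial-like barcodes, for R1 (circles) and R2 (triangles), with exact 95% Poisson intervals for counting error. For the 6 genes other than Ciita both dural border-like points lie above all others. Ciita stood at 12.5 and 3.9 CPM in dural border-like barcodes, against 0 and 3.6 CPM in the other 3 layers, with intervals that met in R2. Ciita rests on 18 and 3 UMIs in dural border-like barcodes.

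edgeR was fitted over 10851 genes and 8 classes of at least 50 barcodes in each library. Cd74 had a log2 fold change of 3.21 ± 0.29 in dural border-like against the mean of pial and inner arachnoid barcodes. Here and below, the ± of a log2 fold change is a standard error worked back from edgeR's F statistic. For the members it is not read as a test, since they were chosen by their levels. The other fitted members had 2.96 ± 0.44 (H2-Ab1), 2.83 ± 0.33 (H2-DMb1), 2.64 ± 0.31 (H2-Aa), 2.54 ± 0.44 (H2-DMa) and 2.21 ± 0.39 (H2-Eb1). Ciita did not pass the filter on low counts, so 6 of 7 members have a fitted value. Across all genes in this contrast the median log2 fold change was 0.10.

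The signal was spread over many dural border-like barcodes. At 1000 UMIs per barcode, 42.4% of dural border-like barcodes of R1 (224 of 528, exact 95% binomial interval 38.2 to 46.8%) and 50.3% of R2 (149 of 296, 44.5 to 56.2%) had at least 1 class II UMI. The shares were 8.9% and 9.6% in pial and perivascular fibroblast-like barcodes, 11.8% and 15.7% in inner arachnoid and 11.1% and 12% in arachnoid barrier-like barcodes. Endothelial-like and erythroid-like barcodes, which are not usual class II carriers, had 11.2% and 6.7%, and 6.2% and 5.0%. The pial, inner arachnoid and arachnoid barrier shares overlapped the endothelial-like ones in their intervals, so no class II expression is read from these shares. The dural border-like intervals lay above those of the pial, inner arachnoid, arachnoid barrier-like and endothelial-like classes in both libraries. Without thinning, 55.8% and 63.8% of dural border-like barcodes had a class II UMI, against 18.2% and 17.7% of pial and 15% and 14% of endothelial-like ones, at median depths of 2326.5 and 2071 UMIs for dural border-like and 1559.5 and 1428 for endothelial-like barcodes.

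**Figure D3:**
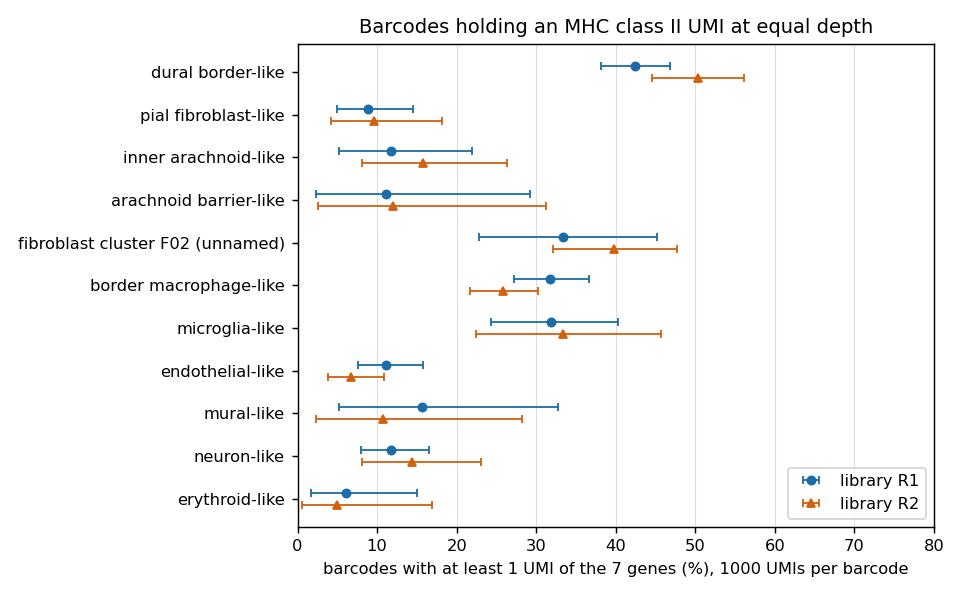
Share of barcodes with at least 1 UMI of the 7 class II genes after each barcode was thinned to 1000 UMIs, by class and library, with exact 95% binomial intervals. Dural border-like barcodes lie at 42.4% and 50.3%, while the other 3 named fibroblast-like layers lie between 8.9% and 15.7%.

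Few dural border-like barcodes held many class II UMIs. At equal depth 3.4% and 6.1% had 5 or more, and the highest barcode had 17 in R1 and 13 in R2, against 86 and 152 in cluster M01. The 5% of dural border-like barcodes with the most held 38.7% and 37.2% of the class's member UMIs, and without them the class still held 592 and 834 CPM. Of the 2 clusters that make up the class, F00 held 1016 and 1166 CPM and F03 held 594 and 1317 CPM, so both lay above every named other layer in both libraries.

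Free RNA from a single source would carry its genes in 1 ratio into every class of a library, so ratios between genes were set side by side. Class II UMIs were 88.7% (exact 95% binomial interval, 87.0 to 90.3%) and 89.6% (87.6 to 91.4%) of class II plus phagocyte marker UMIs in dural border-like barcodes. The phagocyte markers were C1qa, C1qb, C1qc, Tyrobp, Fcer1g, Csf1r, Pf4 and Mrc1. The same share was 42.6% and 45.5% in the other 3 layers, 19.3% and 39.6% in endothelial-like barcodes and 4.0% and 1.8% in border macrophage-like ones. Over all deposited barcodes it was 22.2% and 25.5%. The dural border-like share thus lay above that of border macrophage-like barcodes, of the other layers and of the whole libraries, and in the range of M01 (92.5% and 95.6%) and M04 (85.0% and 79.0%), whose ratios are equally high.

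The share of the DM chain was set beside these. H2-DMb1 was 20.8% (17.9 to 23.9%) and 24.2% (20.7 to 28.0%) of H2-DMb1 plus Cd74 UMIs in dural border-like barcodes. It was 3.9% and 2.3% in M01, 3.5% and 3.3% in M04, 1.85% and 0.82% in B-like barcodes and 7.5% and 6.1% over all deposited barcodes. None of these intervals met the dural border-like ones. In the barcodes left out by the filters the share was 11.5% and 9.2%, and in border macrophage-like barcodes it was 12.7% (10.8 to 14.8%) and 20.8% (17.6 to 24.3%), which met the dural border-like interval in R2. In the other 3 layers, with 46 and 39 such UMIs, it was 26.1% and 30.8%, with wide intervals that met the dural border-like ones, and in endothelial-like barcodes it was 7.5% and 4.7%. Microglia-like barcodes had 40.8% and 44.7%, above the dural border-like share, so the dural border-like values lay between those of M01 and M04 and those of microglia-like barcodes, and a mixture of sources cannot be told apart by this ratio.

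H2-DMa of H2-DMa plus Cd74 was also higher, at 12.6% (10.2 to 15.4%) and 9.7% (7.2 to 12.8%) in dural border-like barcodes, against 4.6% and 4.4% in M01 and 3.0% and 3.2% in M04. In border macrophage-like barcodes it was 8.4% (6.8 to 10.2%) and 14.7% (11.8 to 18.0%), with intervals that met the dural border-like ones in both libraries. H2-Eb1 of H2-Eb1 plus Cd74 ran the other way, at 19.3% and 16.9% in dural border-like barcodes, against 31.6% and 30.7% in M01. H2-Aa was nearly level, at 26.0% and 26.9% against 25.4% and 23.3% in M01, with intervals that met. H2-Ab1 of H2-Ab1 plus Cd74 was 16.2% and 18.6% in dural border-like barcodes, against 31.3% and 29.6% in M01. In border macrophage-like barcodes this H2-Ab1 share was 20.6% and 14.4%, with intervals that met the dural border-like ones in both libraries. In the barcodes left out by the filters the H2-Ab1 share was 20.5% and 19.6%, with intervals that met the dural border-like ones in both libraries. The H2-DMa share there was 7.8% and 7.0%, with intervals that met in R2 alone. The ratios of both DM chains, of H2-Eb1 and of H2-Ab1 to Cd74 thus differed between dural border-like barcodes and M01 beyond their counting intervals. The H2-Ab1 ratio did not set dural border-like barcodes apart from the left-out barcodes.

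**Figure D4:**
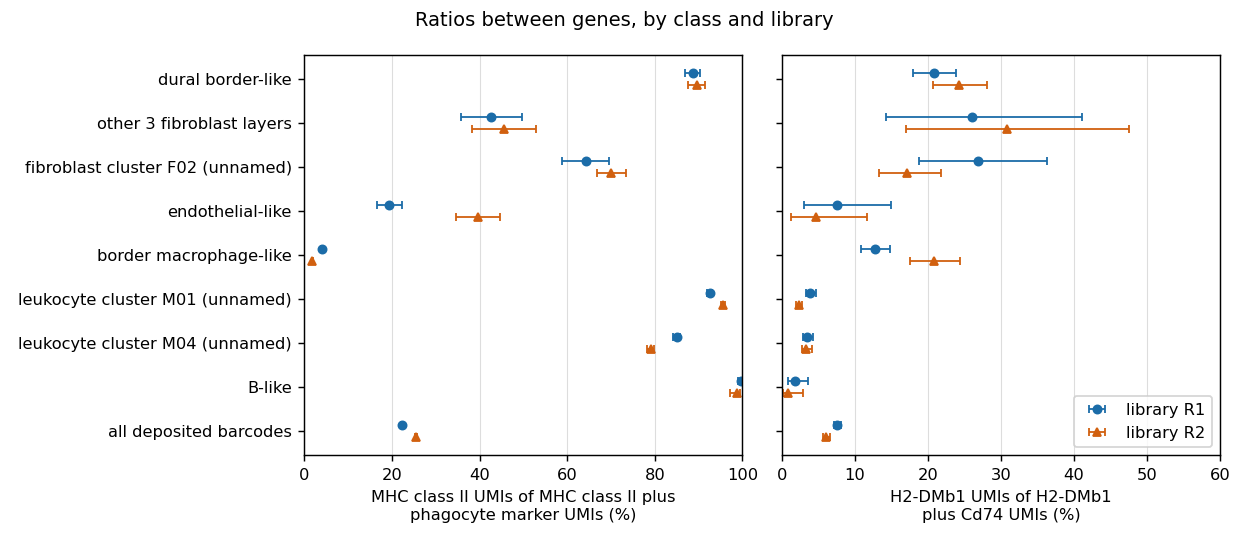
Left, class II UMIs as a percentage of class II plus phagocyte marker UMIs. Right, H2-DMb1 as a percentage of H2-DMb1 plus Cd74 UMIs. Points are classes in R1 (circles) and R2 (triangles), with exact 95% binomial intervals. Dural border-like barcodes lie at 88.7% and 89.6% on the left and at 20.8% and 24.2% on the right, where clusters M01 and M04 lie at 2.3% to 3.9%.

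Dural border-like barcodes with no phagocyte marker UMI held nearly as much. They were most of the class, whose barcodes held means of 0.284 and 0.337 phagocyte UMIs. RNA from a source with few phagocyte marker UMIs beside its class II UMIs, such as M01, was not tested by this split. In the 472 and 251 barcodes with 0 phagocyte UMIs the class II level was 871 and 1218 CPM, against 995 and 1253 CPM in the 110 and 72 barcodes with 1 or more. In endothelial-like barcodes the same 2 sets stood at 128 and 68.4 CPM, against 337 and 687 CPM. In pial and perivascular fibroblast-like barcodes they stood at 101 and 103 CPM, against 251 and 183 CPM. Phagocyte markers themselves stood at 114 and 143 CPM in dural border-like barcodes, against 160 and 185 CPM in the other 3 layers and 850 and 382 CPM in endothelial-like barcodes.

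Markers of the other class II carriers were counted beside this. In dural border-like barcodes B-like markers had 9 and 1 UMIs, with Ms4a1 and Pax5 among those at 0 in both libraries, and 3 of 7 and 1 of 7 markers seen. In the other 3 layers they had 19 and 13 UMIs. Plasma-like markers, mostly antibody genes, stood at 174 and 158 CPM, against 234 and 194 CPM in the other 3 layers. Monocyte-like markers had 3 and 3 UMIs, against 0 and 1, and dendritic-like markers had 26 and 7 UMIs (18.0 and 9.2 CPM), against 3 and 5 UMIs (4.0 and 8.9 CPM), with Xcr1, Clec9a, Itgax and Ccr7 at 0 in dural border-like barcodes of both libraries. Class II UMIs were 97.8% and 98.9% of class II plus monocyte-like and dendritic-like marker UMIs in dural border-like barcodes. The same share was 97.7% and 98.2% in M04, with intervals that met the dural border-like ones, and 94.8% and 97.4% in M01. By this ratio dural border-like barcodes were not set apart from M04. In dural border-like barcodes with no UMI of the phagocyte, B-like, plasma-like, monocyte-like and dendritic-like markers the class II level was 824 and 1168 CPM. Among the endothelial-like clusters the class II level was 290 and 255 CPM in C06, 141 and 116 CPM in C10 and 315 and 601 CPM in C11. What share of any class's class II UMIs came from free RNA was not tested.

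Within the dural border-like class, at 1000 UMIs per barcode, barcodes with 2 or more class II UMIs (100 in R1 and 77 in R2) held 11930 and 15065 CPM of dural border markers, against 9454 and 10864 CPM in barcodes with 0 (304 and 147). Class I genes stood at 2000 and 1883 CPM, against 1385 and 1442 CPM. Phagocyte markers stood at 150 and 117 CPM, against 102 and 129 CPM, with intervals that met. Intervals of the dural border markers did not meet in either library, and those of the class I genes did not meet in R1 and met in R2. The interferon gamma list stood at 490 and 519 CPM, against 513 and 415 CPM, with intervals that met.

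Cluster F02, a large unnamed fibroblast-like cluster (341 and 655 barcodes) in which 5.9% and 4.7% of barcodes reached 1% Malat1 UMIs, held 710 and 938 CPM. Its highest layer score was dural border (0.81), but its astrocyte-like score was higher (1.32), its leading genes included Ttr, Fabp7 and Aqp4, and it therefore took no name. At 1000 UMIs per barcode 33.3% and 39.8% of its barcodes had a class II UMI, from the 75 and 161 barcodes deep enough. H2-DMb1 was 26.9% and 17.2% of H2-DMb1 plus Cd74 there. Its phagocyte markers stood at 394 and 400 CPM, above the dural border-like 114 and 143 CPM, and their part in its class II level was not tested.

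The other genes of antigen presentation were followed in dural border-like barcodes against the mean of pial and inner arachnoid barcodes with edgeR's quasi-likelihood test. Of 54 genes of 5 lists in the files, 41 were tested, and of these 7 rose and 2 fell at an adjusted p below 0.05 (Benjamini-Hochberg), while 32 did not pass. Of all 10851 genes tested, 10.4% rose and 7.06% fell in this contrast. The share of pathway genes that rose (7 of 41) stood against that background of 10.4%, and the median log2 fold change of the 41 was 0.03, against 0.10 over all genes. The classes come from the same cells, so these p-values measure only how class differences varied between R1 and R2.

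Of the other class II and loading genes, 2 of 9 rose and none fell. Sppl2a, the membrane protease that clears the last fragment of the invariant chain, stood at 165 and 166 CPM, against 82.6 and 70.4 CPM (log2 fold change 0.99 ± 0.23, edgeR adjusted p = 0.00054). Ctsd, a lysosomal protease, had 0.78 ± 0.23 (edgeR adjusted p = 0.0099). Of the regulators, 1 of 8 rose, which was Rfxap, a subunit of the RFX complex on the X box (28.4 and 30.1 CPM, against 12.1 and 10.003 CPM, log2 fold change 1.25 ± 0.43, edgeR adjusted p = 0.034). Spi1 and Irf8, factors of myeloid cells, had 0.23 ± 1.08 and -0.40 ± 1.27 and did not pass.

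Of the interferon gamma list, 2 of 11 rose. Ifngr1, a chain of the interferon gamma receptor, stood at 127 and 139 CPM, against 65.8 and 58.8 CPM (log2 fold change 1.49 ± 0.30, edgeR adjusted p = 9.2e-05). Igtp, an interferon-induced GTPase, passed with 1.35 ± 0.49 (edgeR adjusted p = 0.048), but its difference was in R1 alone, at 34.6 and 17 CPM, against 6.6 and 16.0 CPM. Irf1, a transcription factor induced by interferon gamma, had 0.61 ± 0.34 and did not pass. Of the class I list, 2 of 10 rose, which were H2-T23, a non-classical class I gene (0.89 ± 0.22, edgeR adjusted p = 0.0020), and Tapbp, the tapasin of the peptide-loading complex (0.85 ± 0.20, edgeR adjusted p = 0.0011). H2-K1 and B2m, the classical heavy chain and its partner, had -0.23 ± 0.23 and -0.21 ± 0.24. Of 3 costimulation genes tested, none rose and 2 fell. Cd83, an activation marker of dendritic cells, had 0 UMIs in dural border-like barcodes of both libraries, against 5.5 and 8.1 CPM (edgeR adjusted p = 0.0095). These reference values lay below the 3-count floors of the pial class (7.3 and 12.2 CPM) and the inner arachnoid class (10.8 and 11.9 CPM). The fitted log2 fold change of Cd83 was -4.89 ± 1.44, but -1.46 and -1.47 with R1 and R2 alone. Icosl, the ligand of ICOS, stood at 7.6 and 5.2 CPM, against 28.0 and 16.2 CPM (-1.69 ± 0.57, edgeR adjusted p = 0.027).

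These calls depended on the setting. With classes made from one share of the UMIs and counts taken from the rest, 1 gene rose and 0 fell by edgeR's quasi-likelihood test, with 7 and 2 at an unadjusted p below 0.05. With at most 5% mitochondrial UMIs, 1 rose and 6 fell. Neither setting left a named inner arachnoid class, so both compare with the pial class alone.

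**Figure D5:**
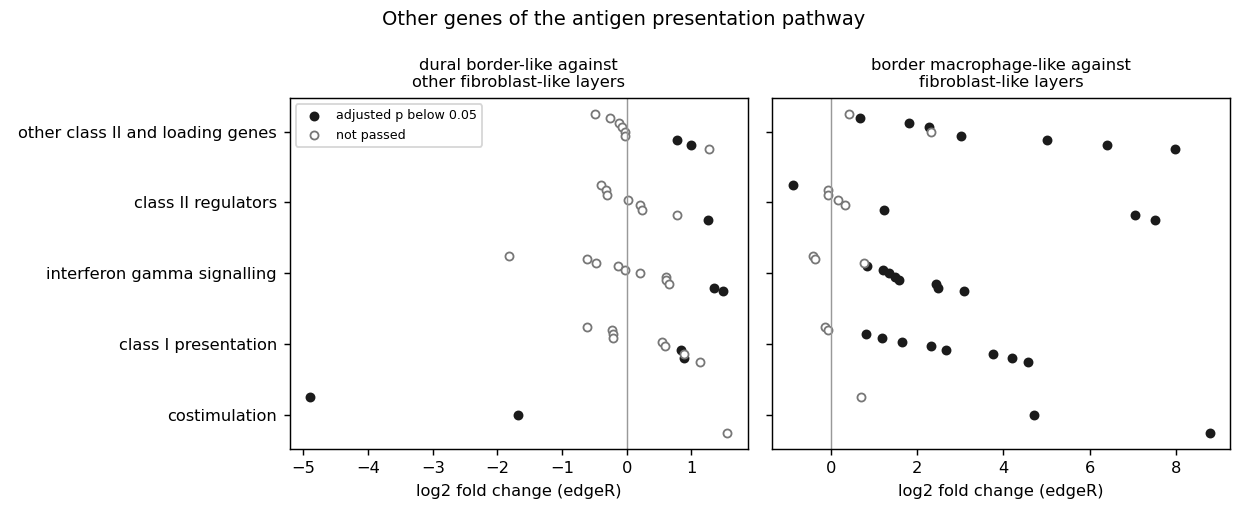
Log2 fold change of each tested gene of the 5 pathway lists, left for dural border-like barcodes against the other fibroblast-like layers and right for border macrophage-like barcodes against the fibroblast-like layers. Filled points passed edgeR's quasi-likelihood test at an adjusted p below 0.05. On the left 7 of 41 genes rose and 2 fell, and on the right 28 rose and 1 fell.

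Border macrophage-like barcodes held many other genes of the pathway at higher levels than the fibroblast-like layers. Against the mean of the dural border, pial and inner arachnoid layers, 28 of the 41 pathway genes rose, 1 fell and 12 did not pass, in a contrast where 28.1% of all 10851 genes rose and 30.8% fell. The median log2 fold change of the 41 was 1.56, against -0.09 over all genes.

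Of the class II loading genes 7 of 9 rose. Ctss, the protease that trims the invariant chain in antigen-presenting cells, stood at 1778 and 1773 CPM, against 12.5 and 4.0 CPM (log2 fold change 7.97 ± 0.34, edgeR adjusted p = 2.8e-29). March1, the ligase that removes class II molecules from the surface, stood at 56.5 and 63.2 CPM, against 1.3 and 0.44 CPM (6.40 ± 0.52 on the log2 scale, edgeR adjusted p = 1.6e-16). Lgmn, an endosomal protease, had 4.999 ± 0.23 (edgeR adjusted p = 4.2e-28). These are the loading genes with the highest fold changes among those that passed.

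Of the regulators 3 of 8 rose and 1 fell. Spi1 and Irf8 had 7.51 ± 0.32 and 7.05 ± 0.37 and Rfxap had 1.23 ± 0.33, and Nfyc, a subunit of NF-Y on the Y box, had -0.89 ± 0.34 (edgeR adjusted p = 0.023). Of the interferon gamma list 8 of 11 rose, led by Ifngr1 (3.08 ± 0.21), Ifngr2 (2.47 ± 0.23) and Iigp1 (2.42 ± 0.43). Of the class I list 8 of 10 rose, led by the immunoproteasome gene Psmb8 (4.58 ± 0.24), by H2-Q7 (4.19 ± 0.73, at 18.3 and 7.2 CPM, against 0.23 and 2.6 CPM, and uncertain because class I genes share near-identical stretches) and by Psmb9 (3.76 ± 0.24), while Tapbp (-0.13 ± 0.19) did not pass. Of the costimulation genes Cd86, the ligand of CD28, had 116 and 119 CPM, against 0.23 and 0 CPM, and Cd83 had 63.5 and 27.3 CPM, against 3.6 and 5.4 CPM, and both rose.

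The class II members themselves had log2 fold changes of 1.58 to 2.45 in this contrast, from H2-DMb1 (1.58 ± 0.27) to Cd74 (2.45 ± 0.24). These are differences of mean logs. On the CPM scale the summed level of dural border-like barcodes was 0.635-fold the border macrophage-like level in R1 and 1.92-fold in R2, so the order of the 2 classes turned between libraries. H2-Ab1 showed this, at 176 and 50.8 CPM in border macrophage-like barcodes, against 78.2 and 126 CPM in dural border-like ones.

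Across 13 classes with at least 20 barcodes in each library, the gene whose mean log2(CPM + 1) was most like that of the 7 members was Tgfbi, a matrix protein gene induced by TGF-beta (Pearson r = 0.86 among 8006 genes). It stood at 446 CPM in border macrophage-like and 255 CPM in dural border-like barcodes. Ppp1r3b (r = 0.81) and Ccn5 (r = 0.80) came next, followed by Snx24, Rnf19b, Kcnj2, Cryl1, Map3k5, St6galnac4 and Tmem86a. Ccn5, Kcnj2, Map3k5 and Tmem86a had their highest level in dural border-like barcodes. The classes share libraries and depth, and clusters M01, M02 and M04 and the B-like barcodes were too small to enter.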

How the data were processed

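The deposited values are raw UMI counts. Per the file headers they came from Cell Ranger 4.0.0, and per the submitters' processing notes the build was mm10. The deposited lists give gene symbols and barcodes in matrix order (unit: other). Every barcode held at least 500 UMIs. Kept barcodes had 400 or more genes, with mitochondrial UMIs at 10% or less, and no doublet caller was used. The members, pathway lists and tests were chosen with earlier results of these data known. The 2000 variable genes held no member, pathway gene, sex-linked gene or reporter. Clustering used scanpy 1.11.5 (30 components, 15 neighbours, Leiden resolution 1.0 with igraph 0.11.9, and 0.8 in a second round of fibroblast-like and leukocyte clusters). Names needed a marker score of at least 0.5, a lead of 0.25 and at least 3 detected markers, with these limits, the Jchain split of plasma-like barcodes and the numbering of clusters set after the clusters were seen.

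Counts were summed per class and library. Intervals (exact Poisson and Clopper-Pearson, 95%) and floors (3 counts for a count of 0) cover counting error only. For shares each barcode was thinned to 1000 UMIs and shallower ones were left out. edgeR 4.0.16 (TMM, filterByExpr, library as a block, 7 residual degrees of freedom) was fitted in R 4.3.3, with Benjamini-Hochberg adjustment over all genes and a threshold of 0.05. The fit was tested on simulated data with known changes. The library block pairs classes of the same library. Named genes were the 7 members, the 10 most alike over classes, and per contrast and list up to 3 genes in each direction with the largest change that passed and moved alike in both libraries, and Igtp, Icosl, Irf1, H2-K1, B2m and Tapbp (in macrophages) were named after their values were seen. Alternatives changed filters, clustering, normalization, test (DESeq2 1.42.0), block and libraries. Promoters are RefSeq's.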

Additional observations from a re-analysis of the deposited data

How the results depend on the processing

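Of the alternatives to the level, share and ratio in dural border-like barcodes, the level in border macrophage-like barcodes and the counts of pathway genes, 53 stayed within the spread of the libraries or within 1.5 times the count, and 18 did not. With at least 800 genes per barcode the dural border-like level was 1311 CPM, the share with a class II UMI 53.8% and the share of class II among class II plus phagocyte marker UMIs 89.999%. No pial class was named in that setting. Without the 5% of barcodes with the most class II UMIs, an alternative added after the data were seen, the dural border-like level was 713 CPM and the border macrophage-like level 312 CPM. The dural border-like share was 29.8% at 500 UMIs per barcode and 59.8% without thinning, as depth sets it. The ratio was 89.8% at Leiden resolution 1.5 and 94.6% with the C1q genes alone. With 1 library at a time the dural border-like level was 896 to 1226 CPM, its share 42.4% to 50.3% and its ratio 88.7% to 89.6%, and the border macrophage-like level 640 to 1411 CPM. In dural border-like barcodes the pathway genes that rose numbered 1 with classes and counts from separate parts of the UMIs and 1 at 5% mitochondrial UMIs, and those that fell numbered 0, 6 and, with at least 1% Malat1 UMIs, 4. In border macrophage-like barcodes 0 fell with DESeq2, with no filter on low counts, with separate parts of the UMIs and with at least 1% Malat1 UMIs, where 1, 1, 0 and 1 had an unadjusted p below 0.05. The cause was not tested. With no replicate block 6 rose and 2 fell in dural border-like barcodes, and in border macrophage-like ones 28 and 1, so it changed neither count by over 1.5 times. With 1 library left out no residual degrees of freedom remained, so no test was made. The members' log2 fold changes ran from 1.59 to 5.13 in dural border-like and from 0.87 to 3.41 in border macrophage-like barcodes. These ranges cover 60 pairs of gene and alternative setting each, single-library values among them, and none reversed. In 19 pairs of gene and setting a named pathway gene no longer passed. The 2 libraries and the low depth of Ciita limit what can be called.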

Other observations

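Between the libraries, the class II level of border macrophage-like barcodes was lower in R2 for all 7 genes, while that of dural border-like barcodes was higher in R2 for 6 of 7, Ciita being the exception. How many of all genes differed in these directions was not counted. In border macrophage-like barcodes Ciita rests on 4 and 0 UMIs, and 5% of the barcodes held 74.7% and 64.8% of the member UMIs. No shift of the family between libraries is read from these counts. Cluster F07, an unnamed fibroblast-like cluster led by macrophage genes, held 541 and 535 CPM of the 7 genes in 18 and 38 barcodes. Cluster F01, an unnamed fibroblast-like cluster whose leading genes include the antibody genes Igha and Igkc, held 198 and 281 CPM in 157 and 308 barcodes.

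T or NK-like barcodes held 51.7 and 234 CPM of the 7 genes, with Cd74 at 0 UMIs in R1 and 32 UMIs in R2. In R2, 1 barcode held 41 of the 68 class II UMIs of the class. Monocyte-like barcodes held Cd74 at 809 and 1093 CPM but H2-Aa at 17.2 and 34.7 CPM and H2-Ab1 at 17.2 and 17.4 CPM, from at most 2 UMIs each. In these 17 and 10 barcodes Ciita had 0 UMIs, and 1 barcode held 37 of 121 class II UMIs in R1 and another 49 of 77 in R2.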
